A study of Macaca mulatta with 16 samples.

Results

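The airway secretory and mucin genes of the fetal rhesus macaque lung were examined as a set of 10 named genes: SCGB1A1, SCGB3A2, MUC5B, MUC5AC, MUC1, MUC4, MUC16, BPIFA1, BPIFB1 and AGR2. A gene was included when a rhesus Ensembl identifier with its symbol had a row in the count table, which was so for 8 of the 10 genes among 22515 rows. MUC5AC and MUC16 matched no row and were not analysed here. BPIFA1 had a row but between 0 and 8 counts per animal, so that 7 genes were tested among the 19199 genes that passed the filter on low counts. The identifiers were ENSMMUG00000031123 for SCGB1A1, ENSMMUG00000017228 for SCGB3A2, ENSMMUG00000010544 for MUC5B, ENSMMUG00000003906 for MUC1, ENSMMUG00000047184 for MUC4, ENSMMUG00000008925 for BPIFA1, ENSMMUG00000062078 for BPIFB1 and ENSMMUG00000017050 for AGR2.

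The conducting airways are lined by ciliated, club, goblet and basal cells, and the club and goblet cells release the proteins of the airway surface. Secretoglobins such as SCGB1A1 are small proteins of club cells, MUC5B and MUC5AC are gel-forming mucins packed into granules with the help of the endoplasmic reticulum protein AGR2, and the BPI fold proteins BPIFA1 and BPIFB1 are secreted defence proteins of the upper and large airways. MUC1, MUC4 and MUC16 are mucins that span the cell membrane, and MUC1 is also made by the alveolar type 2 cells that produce surfactant.

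Bulk RNA sequencing of lung tissue from 16 fetuses, 1 library each, was used to ask how fetal exposure to inflammation, with or without a corticosteroid given to the dam, changed the preterm lung. The preterm controls (n = 4, animals 092, 101, 113 and 209) had no intervention and were delivered at 131 to 135 days of gestation. The LPS 16h animals (n = 4, 026, 029, 035 and 038) received 1 mg of LPS, a bacterial cell wall component that provokes inflammation, into the amniotic fluid at 129 to 130 days and were delivered 16 hours later. The LPS 5d animals (n = 3, 239, 240 and 242) received the same dose at 126 to 129 days and were delivered 5 days later. The LPS + Beta-Ac animals (n = 3, 248, 249 and 255) received the same LPS at 126 to 127 days together with 0.125 mg/kg of betamethasone-acetate (Beta-Ac) given intramuscularly to the dam, and were delivered 5 days later. The term controls (n = 2, 200 and 201) had no intervention and were delivered at 156 and 157 days. No animal given Beta-Ac alone was analysed here, so its effect without LPS was not compared, and both term values rest on 2 animals.

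Library totals were 20169363 to 28348816 counts in 12 animals and 30596371 to 48052891 counts in the 4 LPS 16h animals. Levels are given as CPM (counts-per-million, a gene's counts relative to those of its library), with library sizes scaled by TMM, a trimmed mean of the ratios between libraries, and on this scale 1 count corresponded to 0.0233 to 0.0474 CPM. CPM is not divided by gene length, so the levels of different genes are not compared with each other. A gene is described as called when its adjusted p was below 0.05 and its fold change was 2 or more in either direction. Epithelium was present in this whole lung tissue. SFTPC, SFTPB and the other genes of a 10-gene alveolar type 2 list summed to 7190 to 32900 CPM. All 13 tested genes of a ciliated cell list, among them FOXJ1, were measured, with a sum of 106 to 538 CPM. The 7 genes of a mesenchyme list summed to 7300 to 19800 CPM. Sums of different lists are likewise not compared with each other. In these bulk samples fewer cells of a type and less RNA per cell cannot be told apart.

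MUC1 was called higher than in the preterm controls in every LPS group, with little spread between the animals of a group, and AGR2 was called higher at 16 hours. The log2 fold change of MUC1 was 1.04 in LPS 16h, 1.48 in LPS 5d and 1.63 in LPS + Beta-Ac. SCGB1A1, SCGB3A2, MUC5B, MUC4 and BPIFB1 were not called in any comparison, and their values overlapped between the groups in all 8 comparisons made. LPS 16h was not compared with LPS + Beta-Ac or with the term controls, so the statement does not cover those pairs. In the plot of levels by animal the same few animals stood high or low for several of these genes.

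**Figure D1:**
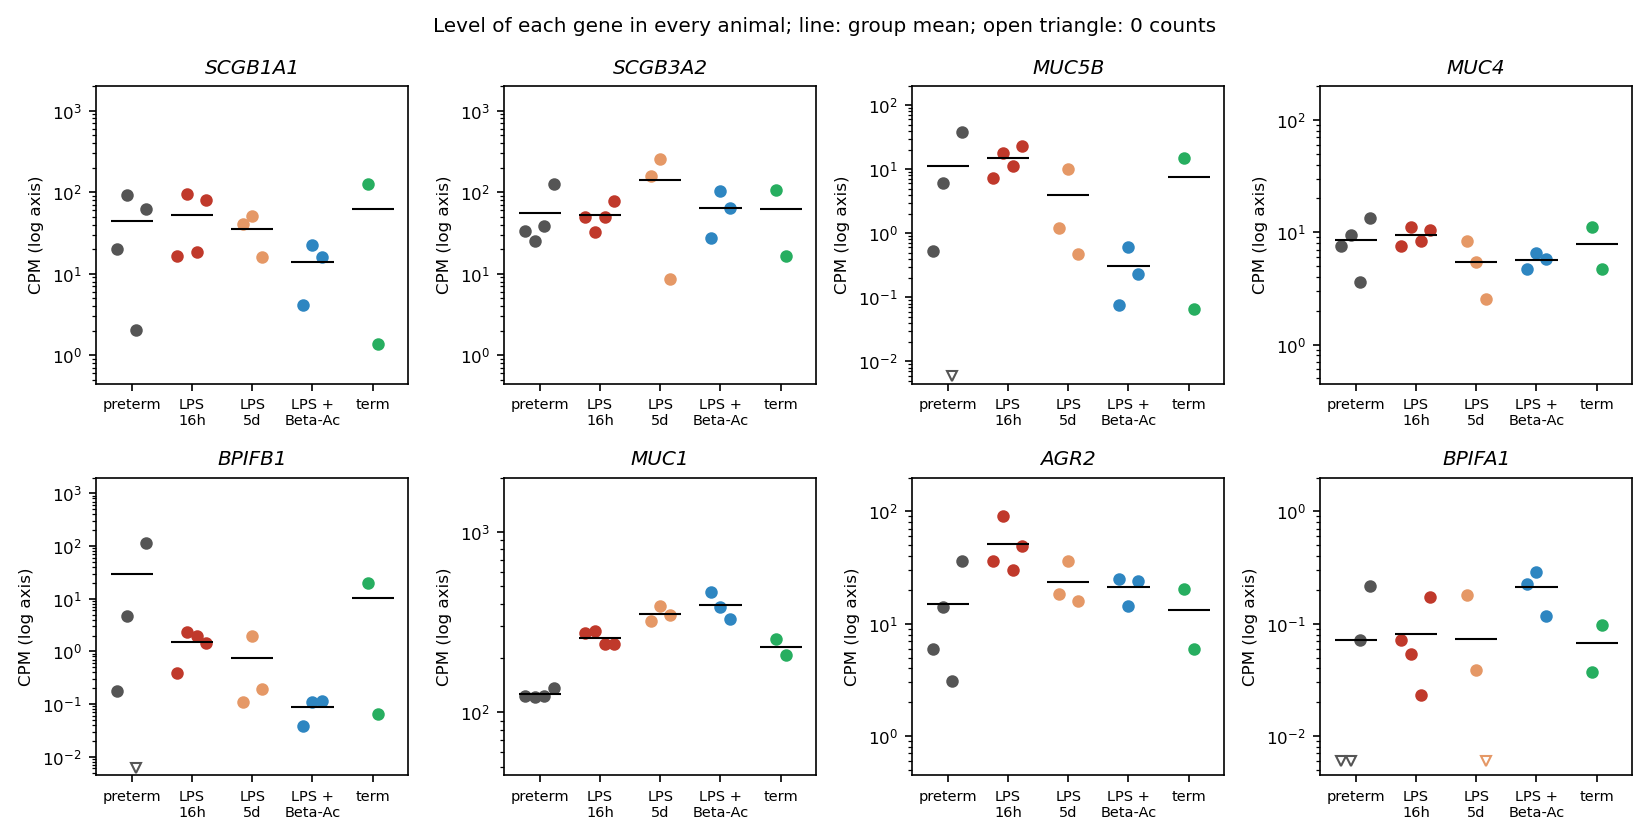
CPM of the 8 genes with a row in each of the 16 animals, on log axes, by group; lines are group means and open triangles are animals with 0 counts. MUC1 sat between 122 and 136 CPM in the preterm controls and above 200 CPM in every other animal, whereas SCGB1A1, MUC5B and BPIFB1 spanned more than a factor of 10 within the preterm controls.

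MUC1, the membrane mucin of airway and alveolar epithelium, was measured at 124 CPM in animal 092, 122 in 101, 123 in 113 and 136 in 209 of the preterm controls. In the LPS 16h animals it was at 277, 283, 238 and 239 CPM, in the LPS 5d animals at 319, 390 and 348 CPM, in the LPS + Beta-Ac animals at 467, 384 and 331 CPM, and in the term controls at 255 and 208 CPM. All preterm controls lay below all animals of the other 4 groups. The lowest and the highest animal of a group differed by no more than 1.41 times.

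Against the preterm controls, the log2 fold change of MUC1 was 1.04 (SE 0.116, adjusted p = 5.26e-06) in LPS 16h, a mean of 259 ± 24.2 CPM (SD, n = 4) against 126 ± 6.54 CPM (n = 4). It was 1.48 (SE 0.125, adjusted p = 2.33e-05) in LPS 5d, with a mean of 353 ± 35.7 CPM (n = 3). It was 1.63 (SE 0.125, adjusted p = 3.06e-06) in LPS + Beta-Ac, with a mean of 394 ± 68.5 CPM (n = 3). MUC1 was therefore called higher in all 3 LPS groups, and in the term controls it passed the adjusted p but not the fold limit, at 0.87 (SE 0.142, adjusted p = 0.00527) and a mean of 231 ± 33.2 CPM (n = 2). The 4 comparisons share the preterm controls and are not independent of each other. The call at 16 hours was near the fold limit: with counts scaled to library totals alone the log2 fold change was 0.83 (adjusted p = 1.93e-05) and the gene was not called. Without term control 200 the term difference was 0.72 with an adjusted p of 0.0857.

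Among the 7 tested genes, 2 were called higher in LPS 16h (MUC1 and AGR2), where 8.30% of all tested genes were called higher. MUC1 alone was called higher in LPS 5d, against 2.60% of all genes, and again alone in LPS + Beta-Ac, against 4.05%. None of the 7 was called in the term controls, against 1.11% of all genes called higher; MUC1 alone had an unadjusted p below 0.05, and limma-voom also called 0. On the adjusted p alone, 1.42% of all genes were higher at term. No member was called lower in any of these comparisons. MUC1 was the member whose animals did not overlap with the preterm controls, on the higher side, in each comparison, which was so for 17.0% of all tested genes in LPS 16h, 13.6% in LPS 5d, 14.7% in LPS + Beta-Ac and 11.2% in the term controls.

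**Figure D2:**
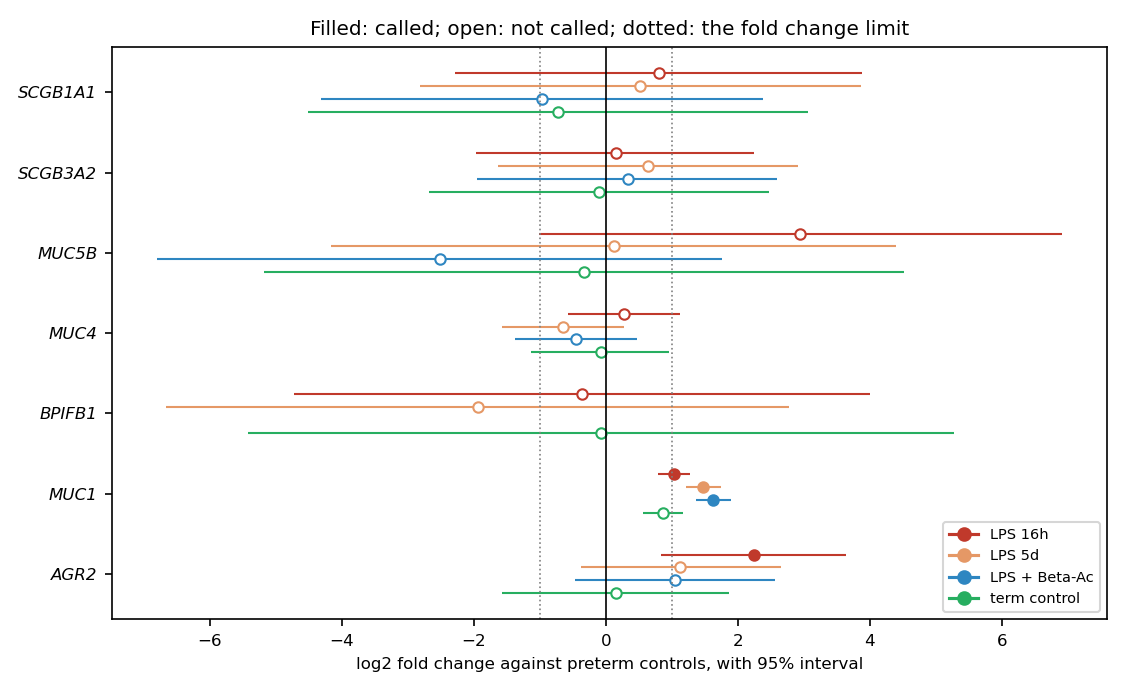
Log2 fold change of the 7 tested genes against the preterm controls (x axis) with 95% intervals from the fit to all 16 animals, one colour per group; filled points were called and dotted lines mark the fold limit. The MUC1 intervals are narrow and lie above 0, from 0.57 at the lower end of the term interval to 1.90 at the upper end for LPS + Beta-Ac, whereas all MUC5B intervals span 0. BPIFB1 in LPS + Beta-Ac is left out because its mean was 2.33 counts.

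MUC1 was also compared between the exposed groups. LPS + Beta-Ac and LPS 5d differed by a log2 fold change of 0.15 (SE 0.133, 95% interval -0.13 to 0.43, adjusted p = 1), so that a difference beyond that interval was not seen. None of the 7 tested genes was called in this comparison, none had an unadjusted p below 0.05 and limma-voom called 0; of all genes 0.104% were called higher. MUC1 was lower in LPS 16h than in LPS 5d by a log2 fold change of -0.45 (SE 0.125, adjusted p = 0.0116), a difference that passed the adjusted p with 15.6% of all genes and missed the fold limit. Without LPS 5d animal 240 it was -0.37 with an adjusted p of 0.0674. Of the 7 genes 0 were called in either direction between LPS 16h and LPS 5d, where 8.02% of all genes were called higher and 1 member, MUC1, had an unadjusted p below 0.05.

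Against the term controls, MUC1 in LPS + Beta-Ac was higher by 0.76 (SE 0.149, adjusted p = 0.031), as 0.479% of all genes were on the adjusted p alone. This did not hold with an adjusted p below 0.05 without LPS + Beta-Ac animal 248 (0.63, adjusted p = 0.112), 249 (0.77, adjusted p = 0.0771) or term control 201 (0.62, adjusted p = 0.252). In LPS 5d against term the MUC1 log2 fold change was 0.61 (SE 0.149, adjusted p = 0.155). No member was called against term in LPS + Beta-Ac, where 0.375% of all genes were called higher, or in LPS 5d, where 0.0313% were; MUC1 alone had an unadjusted p below 0.05 in each, and limma-voom called 0 in each.

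The alveolar type 2 list moved with MUC1. Its 10 genes, all tested, summed to 7190 to 12500 CPM in the preterm controls, 10600 to 24800 CPM in LPS 16h, 17400 to 32000 CPM in LPS 5d, 19700 to 32900 CPM in LPS + Beta-Ac and 18500 to 23800 CPM in the term controls. Of the 10 genes, 5 were called higher in LPS 16h (SFTPD, ABCA3 and 3 others), 4 in LPS 5d and 6 in LPS + Beta-Ac, and none at term. Over all tested genes the shares called higher were 8.30%, 2.60%, 4.05% and 1.11% in the same order. Across the 16 animals the log2 CPM of MUC1 followed the mean log2 CPM of the list with Pearson's r = 0.827 (permutation p = 5e-05, adjusted p = 0.000233) and Spearman's rho = 0.738 (permutation p = 0.00158, adjusted p = 0.00442). Without animals 092 and 101, the farthest from the median of the list, r was 0.723. Within groups, after subtracting each group's mean, r was 0.675 (exact permutation p = 0.004, adjusted p = 0.00934). These p values belong to a family of 14 correlations, 7 genes against 2 lists. The 9 tested pan-epithelial genes, EPCAM and CDH1 among them, summed to 754 to 1000 CPM in the preterm controls, 822 to 1310 CPM in LPS 16h, 1160 to 1360 CPM in LPS 5d, 1060 to 1340 CPM in LPS + Beta-Ac and 808 to 1190 CPM at term. All LPS 5d and LPS + Beta-Ac sums thus lay above all preterm controls. The median log2 fold change of the 9 genes was -0.32 in LPS 16h, 0.63 in LPS 5d, 0.55 in LPS + Beta-Ac and 0.11 at term, and ELF3 was called higher in LPS 16h and LPS 5d, with no other call among the 9 in these 4 comparisons. The part of alveolar type 2 or general epithelial genes in the MUC1 difference was not tested.

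AGR2, which helps mucins fold before secretion, was at 5.97 CPM in preterm control 092, 14.2 in 101, 3.09 in 113 and 36.2 in 209. In LPS 16h it was at 36.3, 90.6, 30.0 and 49.4 CPM. Of the 4 preterm controls 3 lay below all LPS 16h animals, and animal 209 lay within their range. The LPS 5d animals had 18.2, 35.8 and 15.8 CPM, the LPS + Beta-Ac animals 25.0, 14.4 and 24.1 CPM, and the term controls 20.4 and 5.91 CPM, and these 3 groups overlapped with the preterm controls.

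The log2 fold change of AGR2 in LPS 16h against the preterm controls was 2.24 (SE 0.651, 95% interval 0.84 to 3.64, adjusted p = 0.015), from a mean of 14.9 ± 15 CPM (n = 4) to 51.6 ± 27.2 CPM (n = 4). It was called under each alternative tried, with values of 1.69 to 2.86 and adjusted p of 0.00122 to 0.0446 when 1 animal was left out. With only the compared groups fitted the adjusted p was 0.0473, so that several of these calls were near the limit. The log2 fold change was 1.13 (SE 0.703, adjusted p = 0.328) in LPS 5d and 1.05 (SE 0.703, adjusted p = 0.35) in LPS + Beta-Ac, neither of which was called. With preterm control 209 and term control 200 left out together, it was 1.75 (adjusted p = 0.0419) in LPS 5d and 1.67 (adjusted p = 0.0464) in LPS + Beta-Ac, and AGR2 was called in both. Animal 209 had the highest AGR2 of the preterm controls, so leaving it out had to raise both values. Those calls are therefore no separate support for a change. LPS 16h and LPS 5d differed by 1.11 (SE 0.703, adjusted p = 0.247), so that the AGR2 change was not shown to differ between the intervals. At term the log2 fold change was 0.15 (SE 0.797, adjusted p = 0.948).

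MUC5B, the main gel-forming mucin of the distal airways, was at 0.523 CPM in preterm control 092, 6.19 in 101, 0 in 113 and 38.8 in 209. In the LPS 16h animals it was at 7.39, 17.9, 11.4 and 23.2 CPM, which is above 3 of the 4 preterm controls and below animal 209. The LPS 5d animals had 1.23, 10.2 and 0.474 CPM, the LPS + Beta-Ac animals 0.0753, 0.615 and 0.231 CPM, and the term controls 14.9 and 0.0646 CPM. The count of 0 in animal 113 allows a level of up to 0.106 CPM (3 counts), and the LPS + Beta-Ac values stand for 2, 17 and 6 counts. The upper limit for animal 113 covers counting error only.

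The MUC5B log2 fold change in LPS 16h against the preterm controls was 2.95 (SE 1.83, 95% interval -1.02 to 6.91, adjusted p = 0.227) and was not called. With animals 209 and 200 left out it was 4.43 (SE 1.33, adjusted p = 0.0222) and was called. Animal 209 had the highest MUC5B of the preterm controls, so leaving it out had to raise this difference. That call is therefore no separate support for a change. With all animals, the MUC5B log2 fold change was 0.12 (SE 1.97, adjusted p = 0.982) in LPS 5d. It was -2.52 (SE 1.97, adjusted p = 0.435) in LPS + Beta-Ac and -0.33 (SE 2.24, adjusted p = 0.962) at term. LPS + Beta-Ac was at -2.64 (SE 2.11, 95% interval -7.22 to 1.94, adjusted p = 1) against LPS 5d. That interval spans both directions.

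SCGB1A1, the club cell secretory protein, was at 20.3, 92.7, 2.06 and 62.0 CPM in preterm controls 092, 101, 113 and 209. In LPS 16h it was at 16.5, 93.5, 18.6 and 79.2 CPM, in LPS 5d at 40.8, 50.5 and 15.9 CPM, and in LPS + Beta-Ac at 4.18, 22.2 and 15.8 CPM. The 2 term controls had the highest and the lowest value of all animals, 124 CPM in 200 and 1.39 CPM in 201, which differ by 89 times and stand for 3366 and 43 counts. Every group overlapped with the preterm controls. The log2 fold change against them was 0.80 (SE 1.42) in LPS 16h, 0.52 (SE 1.53) in LPS 5d, -0.97 (SE 1.53) in LPS + Beta-Ac and -0.73 (SE 1.74) at term, with adjusted p of 0.695, 0.875, 0.733 and 0.874.

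SCGB3A2, a secretoglobin of the smaller airways, was at 33.4, 24.9, 38.9 and 127 CPM in the preterm controls in the same order. It was at 49.8, 32.0, 49.3 and 78.9 CPM in LPS 16h, at 158, 254 and 8.64 CPM in LPS 5d, at 27.6, 102 and 63.9 CPM in LPS + Beta-Ac and at 107 and 16.5 CPM at term. The lowest and the highest animal of all 16, 242 and 240, were both of the LPS 5d group. The log2 fold changes of SCGB3A2 against the preterm controls lay between -0.10 at term and 0.64 in LPS 5d, with SEs of 0.97 to 1.19 and adjusted p of 0.75 to 0.979.

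BPIFB1, a secreted BPI fold protein, was at 0.174, 4.62, 0 and 114 CPM in the preterm controls, where animal 209 held 3138 of all 4093 counts of the gene in the 16 animals. It was at 0.391, 2.32, 1.96 and 1.45 CPM in LPS 16h, at 0.109, 1.92 and 0.190 CPM in LPS 5d, at 0.0376, 0.109 and 0.116 CPM in LPS + Beta-Ac and at 20.3 and 0.0646 CPM at term. The LPS + Beta-Ac values stand for 1, 3 and 3 counts, and no fold change is given for that group. The log2 fold change was -0.36 (SE 2.02, adjusted p = 0.908) in LPS 16h and 1.66 (SE 1.22, adjusted p = 0.313) with animals 209 and 200 left out. It was -1.94 (SE 2.18, adjusted p = 0.622) in LPS 5d and -0.07 (SE 2.48, adjusted p = 0.995) at term. BPIFA1, the related protein of the nasal and tracheal surface, had 46 counts in all 16 animals together, at most 8 in one animal (249 of LPS + Beta-Ac, 0.290 CPM), and was not tested.

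MUC4, a membrane mucin of the ciliated airway surface, varied less: 7.49, 9.38, 3.62 and 13.5 CPM in the preterm controls and 7.60, 11.1, 8.39 and 10.4 CPM in LPS 16h. It was at 8.27, 5.41 and 2.56 CPM in LPS 5d, 4.67, 6.59 and 5.74 CPM in LPS + Beta-Ac and 11.1 and 4.72 CPM at term. All groups overlapped with the preterm controls, and the log2 fold change of MUC4 was between -0.65 (SE 0.431, adjusted p = 0.363) in LPS 5d and 0.27 (SE 0.399, adjusted p = 0.63) in LPS 16h.

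The animals that were high for one of the variable genes tended to be high for others. Animal 209 had the highest MUC5B, MUC4 and BPIFB1 of all 16, term control 200 was among the 3 highest for SCGB1A1, MUC4 and BPIFB1, and animals 113, 201 and 248 were the 3 lowest for SCGB1A1, MUC5B and BPIFB1. The same animals differed in genes of ciliated cells: the mean log2 CPM of the 13 ciliated genes was highest in 209 (4.83) and 200 (4.20) and lowest in 201 (1.1), 248 (1.35) and 113 (1.59). Animal 209 was also highest of the 16 on the airway cartilage list, with a sum of 457 CPM against 92 to 278 CPM in the other animals, and on the submucosal gland and squamous list, with 35.5 CPM against 4.24 to 12.2 CPM.

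Over the 16 animals, the log2 CPM of SCGB1A1 followed the ciliated list with Pearson's r = 0.879 (permutation p = 3e-05) and Spearman's rho = 0.909 (permutation p = 1e-05, the smallest that 100000 permutations can give), adjusted to 0.00021 and 0.00014. For BPIFB1 r was 0.874 (permutation p = 3e-05, adjusted p = 0.00021) and rho 0.791 (permutation p = 0.00056, adjusted p = 0.00241). For MUC5B r was 0.809 (permutation p = 0.00023, adjusted p = 0.000805) and rho 0.797 (permutation p = 0.0004, adjusted p = 0.00241). These 3 genes of club and goblet cells and of glands thus rose and fell over the animals with genes of another airway cell type.

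For MUC4 r was 0.731 (permutation p = 0.00117, adjusted p = 0.00328) and rho 0.771 (permutation p = 0.00069, adjusted p = 0.00241). SCGB3A2 had r = 0.563 and rho = 0.600 (permutation p = 0.0233 and 0.0162, adjusted 0.0544 and 0.0378), and AGR2 had r = 0.550 and rho = 0.441 (permutation p = 0.0272 and 0.0894, adjusted 0.0544 and 0.179). MUC1 had r = -0.141 and rho = -0.0235 (permutation p = 0.6 and 0.935). Without animals 200 and 209, the farthest from the median of the list, r was 0.917 for SCGB1A1, 0.773 for BPIFB1, 0.755 for MUC5B, 0.615 for MUC4, 0.595 for AGR2 and 0.466 for SCGB3A2.

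Within groups, after each group's mean was subtracted, the relation to the ciliated list was 0.926 for MUC5B, 0.903 for BPIFB1, 0.902 for SCGB1A1, 0.877 for AGR2 and 0.841 for MUC4, with exact permutation p of 0.000265, 0.000555, 0.00159, 0.00215 and 0.00159, adjusted to 0.00371, 0.00388, 0.00557, 0.00601 and 0.00557. For SCGB3A2 it was 0.616 (exact permutation p = 0.0305, adjusted p = 0.0611). For AGR2 the relation was thus 0.550 across all animals and 0.877 within groups, and in the plot of the marker lists its LPS 16h animals lie above the other animals at like levels of the ciliated list. Against the alveolar type 2 list no gene other than MUC1 had an adjusted permutation p below 0.05, the lowest being 0.182 for the rho of AGR2.

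**Figure D3:**
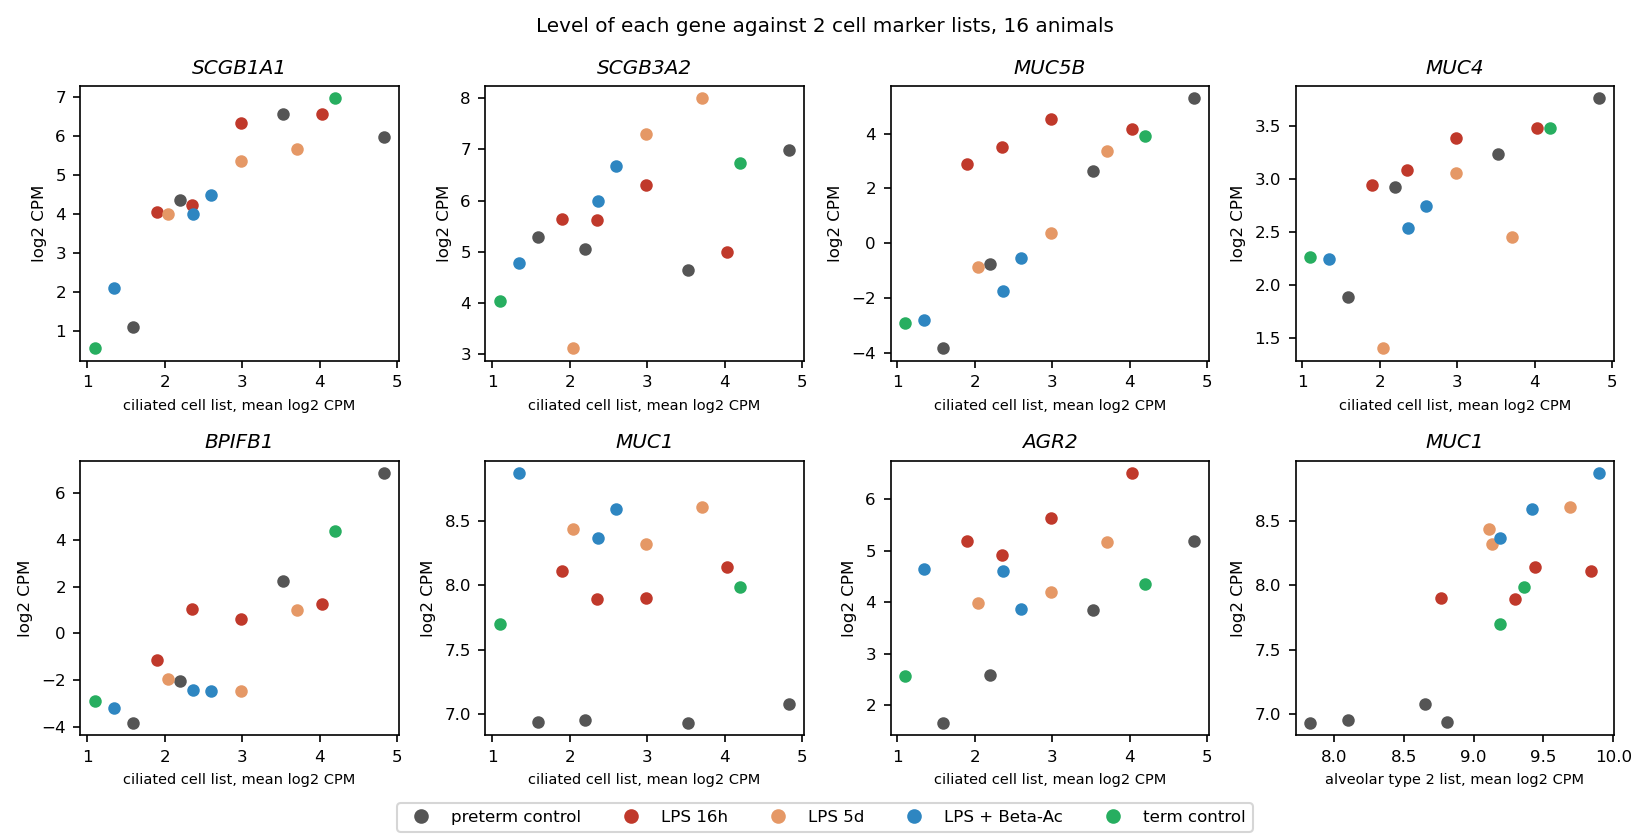
Log2 CPM of each tested gene (y axes) against the mean log2 CPM of the 13 ciliated cell genes (x axes of the first 7 panels) and MUC1 against the mean of the 10 alveolar type 2 genes (last panel), 1 point per animal, coloured by group. Over all animals together SCGB1A1, MUC5B, BPIFB1 and MUC4 tend to climb with the ciliated list, though not from animal to animal in every group. MUC1 does not (r = -0.141) and follows the alveolar type 2 list (r = 0.827).

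The groups overlapped on the ciliated list. Its mean log2 CPM was 1.59 to 4.83 in the preterm controls, 1.90 to 4.03 in LPS 16h, 2.04 to 3.70 in LPS 5d, 1.35 to 2.59 in LPS + Beta-Ac and 1.10 to 4.20 at term. Of its 13 genes 1, TPPP3, was called, lower, in LPS 16h, where 6.07% of all tested genes were called lower. The median log2 fold change of the 13 against the preterm controls was 0.01 in LPS 16h and -0.15 in LPS 5d. It was -1.01 in LPS + Beta-Ac and -0.41 at term, beside -0.01 over all tested genes in each. In LPS + Beta-Ac against LPS 5d the median was -0.78, beside 0, with none of the 13 called. With the list's level added to the fit as a covariate, an alternative chosen after the data were seen, MUC5B was called higher in LPS 16h (log2 fold change 3.41, SE 0.690, adjusted p = 0.00151). AGR2 was called higher in LPS 5d (1.23, SE 0.344, adjusted p = 0.0251) and in LPS + Beta-Ac (1.74, SE 0.360, adjusted p = 0.00347). In that fit MUC5B and AGR2 were also called higher in LPS 16h than in LPS 5d, at 3.02 (SE 0.743, adjusted p = 0.006) and 1.18 (SE 0.344, adjusted p = 0.0154). Within groups the list followed MUC5B (r = 0.926) and AGR2 (r = 0.877) in these same animals, so adding it lowered their SEs. The SE was 1.83 for MUC5B in LPS 16h and 0.703 for AGR2 in LPS 5d without the covariate. The added calls of that fit are therefore no separate support for a change. The part of ciliated cells in the differences of these genes was not tested.

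The genes whose log2 CPM over the 16 animals was most like that of each member were found among all tested genes with a symbol. For SCGB1A1 they were AK7 (r = 0.950), DNAAF1 (0.938) and LRRC46 (0.937), and for MUC5B ZBBX (0.968), ANKEF1 (0.957) and VWA3B (0.949). For BPIFB1 they were CEP126 (0.959), SIX2 (0.942) and LRRIQ1 (0.941), and for MUC4 ADGB (0.862), AKAP14 (0.860) and MAP3K19 (0.857). AK7 and DNAAF1 are needed for motile cilia.

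For AGR2 the most alike genes were DMKN (0.931), SERPINA3 (0.921), an acute-phase protease inhibitor, and CCL13 (0.909), a chemokine. For MUC1 they were ACSS2 (0.947), NPC2 (0.937), a cholesterol-binding lysosomal protein, and SLC8B1 (0.926). SCGB3A2 had no close match, with CCDC148 (0.748), LANCL3 (0.737) and CEP170B (0.728) at the top. These values describe 16 animals that share library depth and groups, and no p is given.

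Of a list of 20 other club and secretory cell genes, 17 were tested, and in LPS 16h 7 of them were called higher and 1 lower, against 8.30% and 6.07% of all tested genes. LCN2, an iron-scavenging lipocalin, rose from 8.08 ± 3.32 CPM to 2100 ± 196 CPM (SD, n = 4 each), a log2 fold change of 8.09 (SE 0.329, adjusted p = 4.93e-10). PIGR, the receptor that carries antibodies across the epithelium, rose by 4.19 (SE 0.415, adjusted p = 2.87e-06) on the log2 scale, and the protease inhibitor SLPI by 4.08 (SE 0.347, adjusted p = 3.56e-07). WFDC2 rose by 2.68 and the mucosal chemokine CXCL17 by 2.59 on the log2 scale. CYP4B1, a cytochrome of club cells, fell by 2.08 on the log2 scale (SE 0.254, adjusted p = 1.62e-05), from 582 ± 137 to 142 ± 46.4 CPM (SD, n = 4 each). The median log2 fold change of the 17 genes was 0.33, beside -0.09 over all tested genes.

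LCN2, SLPI and LTF are made by neutrophils as well as by epithelium. The 9 genes of a neutrophil and monocyte list, among them S100A8 and CSF3R, summed to 180 to 281 CPM in the preterm controls and 2040 to 2900 CPM in LPS 16h, and 7 of the 9 were called higher. In LPS 5d the list summed to 164 to 278 CPM and 3 of the 9 were called higher, in LPS + Beta-Ac it summed to 284 to 604 CPM with 7 of the 9 called higher, and at term to 189 to 305 CPM with 3 of the 9. The shares of all tested genes called higher were 8.30% in LPS 16h, 2.60% in LPS 5d, 4.05% in LPS + Beta-Ac and 1.11% at term. The median log2 fold change of the 9 genes was 4.08 in LPS 16h, 1.12 in LPS 5d, 2.43 in LPS + Beta-Ac and 1.63 at term. The sum in the preterm controls came mostly from VCAN, which was at 155 to 238 CPM there. The part of the neutrophil and monocyte list in the changes of LCN2, SLPI and LTF was not tested. PIGR and WFDC2 were at levels of 136 to 283 and 251 to 582 CPM in the LPS 16h animals, all above the preterm ranges of 5.53 to 26.0 and 50.6 to 61.9 CPM. Of all tested genes 17.0% lay above the preterm controls without overlap in LPS 16h. Which cells the PIGR and WFDC2 changes came from was not tested.

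At 5 days, 4 of the 17 club and secretory genes were called higher in LPS 5d (LCN2, WFDC2, CXCL17 and PIGR) and 5 in LPS + Beta-Ac (the same 4 and S100P), beside 2.60% and 4.05% of all tested genes, and none lower. The median log2 fold change of the 17 was 0.45 in LPS 5d, 0.37 in LPS + Beta-Ac and 0.31 at term, beside 0, -0.01 and -0.01 over all tested genes. At term, where 1.11% of all genes were called higher, 2 of the 17 were, LCN2 with 2.99 (SE 0.403, adjusted p = 0.00266) and CXCL17 with 2.14 (SE 0.242, adjusted p = 0.000826). Between LPS + Beta-Ac and LPS 5d none of the 17 was called. CXCL17 was at 28.0 to 32.4 CPM in the preterm controls, 133 to 256 in LPS 16h, 93.6 to 150 in LPS 5d, 136 to 186 in LPS + Beta-Ac and 108 to 165 at term, so that like MUC1 its preterm controls lay below every other animal. The same held for LCN2, WFDC2 and PIGR of this list. Of all tested genes, 17.0% in LPS 16h, 13.6% in LPS 5d, 14.7% in LPS + Beta-Ac and 11.2% at term lay above the preterm controls without overlap. The values of the list share the preterm controls in the 4 comparisons.

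**Figure D4:**
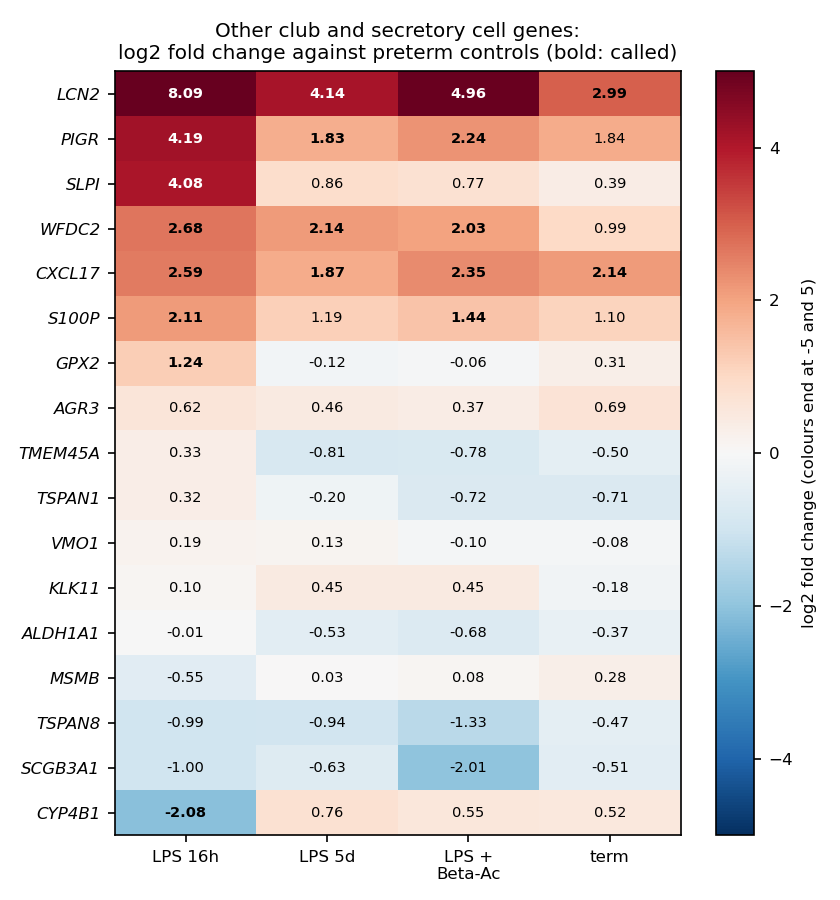
Log2 fold change against the preterm controls (colour and printed value) of the 17 tested genes of the club and secretory cell list, ordered by LPS 16h, in the 4 comparisons (columns); values in bold were called. LCN2 and CXCL17 are bold in all 4 columns, and CYP4B1 at -2.08 in LPS 16h is the 1 value called lower.

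Of 21 tested genes of goblet cells and mucus assembly, 1 was called in LPS 16h, where 8.30% of all tested genes were called higher and 6.07% lower. This was the proton pump ATP12A, at 0 to 0.109 CPM in the preterm controls and 1.47 to 14.2 CPM in LPS 16h. In LPS 5d, where 2.60% of all genes were called higher, 1 was called, the mucin glycosyltransferase GALNT5, with a log2 fold change of 1.48 (SE 0.322, adjusted p = 0.00707), from 111 ± 24.5 to 308 ± 49.0 CPM. None was called in LPS + Beta-Ac, where 4.05% of all genes were called higher. At term, with 1.11% of all genes called higher, 1 was called, the lectin ITLN1, with 2.31 (SE 0.577, adjusted p = 0.0411). SPDEF, the goblet cell transcription factor, was at 0.426 to 0.873 CPM in the preterm controls and 0.569 to 1.68 CPM in LPS 16h, with a log2 fold change of 0.54 (SE 0.436, adjusted p = 0.356). The median log2 fold changes of the 21 genes in these 4 comparisons were 0.20, -0.09, -0.09 and 0.05.

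Of 5 tested mucins outside the 10, 1 was called in LPS 16h, the membrane mucin MUC3A, at 0 to 0.305 CPM in the preterm controls and 1.88 to 8.63 CPM in LPS 16h, and none in the other 3 comparisons with preterm controls. Of 6 other BPI fold and airway defence proteins, 3 were called higher in LPS 16h. Of all tested genes 8.30% were called higher in LPS 16h, 2.60% in LPS 5d, 4.05% in LPS + Beta-Ac and 1.11% at term. LTF, the iron-binding lactoferrin, had a log2 fold change of 2.30 (SE 0.577, adjusted p = 0.00665) in LPS 16h. It was 2.05 (SE 0.623, adjusted p = 0.0372) in LPS + Beta-Ac, where LTF alone of the 6 was called. BPI was at 0 to 0.139 CPM in the preterm controls and 1.14 to 1.34 CPM in LPS 16h, and LBP, the lipopolysaccharide-binding protein, had 0 counts in all preterm controls and 0.178 to 0.727 CPM in LPS 16h.

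Of 18 tested regulators of secretory genes, 5 were called higher and 1 lower in LPS 16h, beside 8.30% and 6.07% of all tested genes. CEBPD and CEBPB rose by 3.22 (SE 0.223, adjusted p = 3.98e-08) and 2.19 (SE 0.178, adjusted p = 1.78e-07) on the log2 scale, STAT3 by 2.01, and the epithelial ETS factors EHF and ELF3 by 2.26 and 1.28. HEY1, a target of Notch signalling, fell by 1.08 on the log2 scale (SE 0.245, adjusted p = 0.00268). ELF3 was called higher in LPS 5d (1.36, SE 0.283, adjusted p = 0.00567), EHF in LPS + Beta-Ac (1.54, SE 0.494, adjusted p = 0.0456), and CEBPB and CEBPD at term (1.20 and 1.33). Of all tested genes 2.60%, 4.05% and 1.11% were called higher in these 3 comparisons. The median of the 18 was -0.18 in LPS 16h. FOXA2 of this list and FOXA3 of the goblet cell and mucus assembly list were not called in any of the 4 comparisons with preterm controls.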

How the data were processed

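The authors deposited a table of counts, a whole number for each rhesus Ensembl gene in each animal, with no normalization; the unit is recorded here as other, because the layout could not be read automatically. Per the labels, poly(A)-selected RNA was sequenced as 75 bp paired-end reads, and the submitters' processing notes name the build Mmul_10, kallisto and DESeq2. Symbols were taken from a table of rhesus gene names.

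Counts were scaled with TMM (30% of ratios and 5% of mean values trimmed), turned into log2 CPM with a prior count of 2 and fitted with limma 3.58.1 (trend and robust) in R 4.3.3, with 1 mean per group over all 16 animals. A gene was tested if it reached 0.371 CPM in 2 or more animals and its counts summed to 15 or more. All p values are two-sided, and adjusted p is by Benjamini-Hochberg over 19199 genes, or over 14 correlations. Genes with a mean under 4 counts in a compared group are given no fold change. Each animal is 1 library, and no 2 libraries of a group agreed within sampling noise.

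The members and lists were chosen with earlier results of these data known. Named genes are all members with a row, up to 5 called genes per list and direction, marker lists as a whole with up to 3 genes, and the 3 genes most alike to each member; SPDEF, FOXA2, FOXA3, LBP and the genes marked as alternatives were named after their values were seen. The steps were tested on simulated data. Transcript lengths and sequences were not used here.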

Additional observations from a re-analysis of the deposited data

Results flagged for a closer look

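One result met the criteria for a closer look. The change of MUC1 against the preterm controls differed between the 2 intervals after LPS: it was 1.04 (log2 scale) at 16 hours and 1.48 at 5 days, and the contrast of LPS 16h with LPS 5d in the same fit was -0.45 (SE 0.125, adjusted p = 0.0116), lower in 4 of 4 LPS 16h animals than in all 3 LPS 5d animals. The contrast missed the fold limit, and 15.6% of all tested genes passed the adjusted p in that direction. For 19.0% of all tested genes every LPS 16h animal was likewise lower than every LPS 5d animal. Without LPS 5d animal 240 the contrast was -0.37 with an adjusted p of 0.0674. The LPS 16h libraries were the deepest, and with counts scaled to library totals the contrast was -0.64 (adjusted p = 0.000497). That scaling also shifted the median of all genes by -0.18 in this comparison. The tested genes in the preterm controls and in LPS 16h gave 14 sets of 4 animals. In none of them did the highest or lowest animal stand apart from the other 3 by Dixon's criterion. With 4 animals only a very wide gap on the log2 scale meets it, so it cannot show that no animal was apart. The smaller groups were not examined.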

How the results depend on the processing

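The calls of MUC1 in LPS 5d and LPS + Beta-Ac and of AGR2 in LPS 16h held under all alternatives tried: median-of-ratios scaling, total-count scaling, no filter, a prior count of 0.5, limma-voom, a fit to the compared groups only, each animal left out, animals 209 and 200 left out together and, added after the data were seen, the ciliated list level as a covariate. With total-count scaling 1 tested member instead of 2 was called in LPS 16h against the preterm controls, since the median of all genes shifted by -0.2 and MUC1 fell to 0.83; the share of called genes that were higher went from 57.8% to 39.4% there and from 54.8% to 38% in LPS 16h against LPS 5d. With animals 209 and 200 left out, and with the covariate, 2 members instead of 1 were called in LPS 5d and in LPS + Beta-Ac. The added member was AGR2, and animal 209 had its highest preterm value. In LPS 16h against LPS 5d 2 members were called with the covariate, 1 (MUC5B, 2.83, adjusted p = 0.0375) with the compared groups only, and 0 or 1 with an animal left out (MUC4, 1.30, adjusted p = 0.0471 without 239). At term 0 or 1 was called with an animal left out (MUC1, 1.02 without 201). Without a minimum fold 1 member, MUC1, passed at term, in LPS 16h against LPS 5d and in LPS + Beta-Ac against term.

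The log2 fold changes that turned direction were all of genes not called in that comparison. Against the preterm controls in LPS 16h, BPIFB1 was 0.16 with a prior count of 0.5, 0.27 with limma-voom, 1.66 without 209 and 200 and 0.15 with the covariate, and SCGB3A2 was -0.06 with total-count scaling. Without 209 and 200, BPIFB1 was 0.07 in LPS 5d and AGR2 -0.12 at term, and BPIFB1 was 0.16 at term with a prior count of 0.5. With the covariate SCGB1A1 was 0.50 in LPS + Beta-Ac, SCGB3A2 0.18, MUC5B 0.49, MUC4 0.09 and BPIFB1 0.82 at term, and SCGB3A2 0.28 and AGR2 0.51 in LPS + Beta-Ac against LPS 5d. With 1 animal left out the values in LPS 16h ran from -0.33 to 1.48 for SCGB1A1, -0.14 to 0.65 for SCGB3A2, -0.08 to 0.54 for MUC4 and -1.90 to 1.66 for BPIFB1. In LPS 5d they ran from -0.61 to 1.21 for SCGB1A1, -0.28 to 2.15 for SCGB3A2, -1.44 to 1.60 for MUC5B and -3.49 to 0.07 for BPIFB1, and in LPS + Beta-Ac from -0.08 to 0.84 for SCGB3A2. At term they ran from -3.94 to 2.47 for SCGB1A1, -1.45 to 1.24 for SCGB3A2, -3.73 to 3.07 for MUC5B, -0.69 to 0.53 for MUC4, -3.69 to 3.55 for BPIFB1 and -0.74 to 1.04 for AGR2. In LPS + Beta-Ac against LPS 5d they ran from -1.83 to 0.61 for SCGB3A2, -0.25 to 0.58 for MUC4 and -0.31 to 0.28 for AGR2. Where no value is given beside a change, the cause was not tested. No paired analysis was possible because the groups share no animal numbers. Depth limits BPIFA1, BPIFB1 and MUC5B, which had single-digit counts or none in several animals.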
